A study of Homo sapiens with 24 samples.

Results

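The effect of the FOXRED1 knockdown was contrasted with that of the YY2 knockdown in OE33 cells, a cell line derived from a human adenocarcinoma of the distal esophagus. The contrast takes, for each gene, the log2 fold change of shFOXRED1 over its own shControl minus the log2 fold change of shYY2 over its own shControl. It uses 12 of the 24 libraries of the series, 3 in each of the 4 groups, all of them mRNA of OE33 cells 72 h after transfection with a plasmid for a short hairpin RNA (shRNA) or with shControl, and no sample serves both experiments. No other treatment or allele is named for these cells in the sources used here, and only 1 cell line was used. The methods describe puromycin selection of stably transfected cells, without saying whether the sequenced cells were selected. The study placed FOXRED1 downstream of YY2, so the question here is which genes responded to both knockdowns, to 1 of them, or in opposite directions.

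YY2 is a zinc finger transcription factor, a retroposed relative of YY1 that binds a similar CCAT core and can raise or lower the transcription of its targets. FOXRED1 is a mitochondrial FAD-dependent oxidoreductase-like protein needed for the assembly of respiratory complex I, the first enzyme of the respiratory chain. It has no known DNA-binding role, and mutations of its gene cause complex I deficiency.

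The hairpins designed by the study are shown because their target sites decide which transcripts each knockdown can reach. Capitals mark the target bases in the sense strand, the lower-case run after them is the loop followed by the reverse complement, and which of the hairpins of each pair was sequenced was not given in the sources used here.
shYY2 #1: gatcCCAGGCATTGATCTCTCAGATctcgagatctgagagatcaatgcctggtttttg
shYY2 #2: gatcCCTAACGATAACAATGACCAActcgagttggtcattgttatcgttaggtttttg
shFOXRED1 #1: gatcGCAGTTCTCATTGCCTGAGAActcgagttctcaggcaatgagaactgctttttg
shFOXRED1 #2: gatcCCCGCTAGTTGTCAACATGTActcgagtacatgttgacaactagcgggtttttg
Each target has 21 bases and matched transcripts of its own gene exactly, at 1 unspliced GRCh38 site on the plus strand. Only GENCODE 29 transcripts were searched, not the whole genome. The sites of shYY2 #1 (chrX:21857157-21857177) and shYY2 #2 (chrX:21857052-21857072) lie in exon 1 and in the coding sequence of the 1 YY2 transcript of GENCODE 29. YY2 lies within MBTPS2, which encodes the site-2 protease, and both targets also matched 1 non-coding MBTPS2 transcript and neither of its 2 coding ones. The best match of the 2 targets to YY1 had 2 and 7 mismatches. The site of shFOXRED1 #1 (chr11:126273013-126273033) is in 11 of the 18 FOXRED1 transcripts and in the coding sequence of 3 of its 4 coding ones. The site of shFOXRED1 #2 (chr11:126277503-126277523) is in 9 of the 18 and in the coding sequence of 2 of the 4. Neither FOXRED1 target matched a transcript of another gene exactly.

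Total counts lay between 14299807 and 19994837 per library, and 17146 of 61860 genes had enough counts to be tested. Epithelial markers were present in all 12 libraries, with EPCAM at 507 to 694 and KRT19 at 6160 to 10600 CPM (counts scaled per 1e6, relative to TMM-normalized library sizes). Markers of other cell types were at or under 0.5 CPM, except COL1A1, a collagen of fibroblasts, at 10.4 to 44.2 CPM. Of the fibroblast markers, COL1A2, COL3A1, PDGFRB and LUM were at or under 0.38 CPM, so their sum with COL1A1 is nearly all COL1A1. That sum was 38.2 to 41.6 CPM with shFOXRED1 against 24 to 25.3 CPM in its shControl. It was 42.5 to 44.3 CPM with shYY2 against 10.5 to 11.2 CPM. The part of this COL1A1 change in the results was not tested. The labels do not say that the 3 libraries of a group came from separate cultures, so p-values measure only the spread between these libraries. The shControl libraries of the 2 experiments differed from each other in 64.9% of genes tested, 30.9% higher and 34% lower in the FOXRED1 experiment. Each target was knocked down in 1 experiment only. Experiment and target therefore cannot be told apart, neither for a level nor for the difference between the effects and the gene classes drawn from it, although each knockdown is compared with its own shControl. The shFOXRED1 replicate 3 library stood apart from its replicates, with a chi-square per gene of 8.01 and 6.94 against them and of 2.15 between the other two; in the other 3 groups pairs of libraries had 1.47 to 3.61.

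Both knockdowns lowered FOXRED1 mRNA, by amounts whose difference did not pass the test, whereas YY2 mRNA fell with shYY2 alone. FOXRED1 (ENSG00000110074) had 10.1, 11.1 and 8.76 CPM in the 3 shFOXRED1 libraries and 17.6, 17.1 and 17.1 CPM in their shControl. It had 19.2, 16.2 and 17.9 CPM with shYY2 and 33.8, 32.3 and 32.8 CPM in the shControl of that experiment. The groups did not overlap in either experiment, and the shYY2 libraries stood near the level of the other experiment's shControl, which was itself lower than the shControl of the YY2 experiment (log2 difference -0.93 ± 0.08, SE). The fall was 1.72-fold with shFOXRED1 and 1.85-fold with shYY2, log2 fold changes of -0.78 ± 0.10 and -0.89 ± 0.08 (SE, n = 3 against 3, adjusted p = 8.3e-07 and 2.77e-09, quasi-likelihood F test of edgeR, Benjamini-Hochberg adjusted). The difference of 0.11 (95% interval -0.15 to 0.37) did not pass the test, with adjusted p = 0.48. The interval rests on the spread between these libraries and does not show that the 2 effects were equal.

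YY2 (ENSG00000230797) was scarce, with 0.675, 0.724 and 0.597 CPM in the shYY2 libraries and 2.37, 2.37 and 2.33 CPM in their shControl. In the FOXRED1 experiment it had 2.37, 1.83 and 2.38 CPM with shFOXRED1 and 1.37, 0.923 and 1.95 CPM in the shControl. The shYY2 libraries, with 11, 12 and 11 counts, all lay under their shControl, whereas the 2 groups of the FOXRED1 experiment overlapped. YY2 fell by 1.82 on the log2 scale with shYY2 (SE 0.28, adjusted p = 5.21e-06). The value with shFOXRED1 was 0.63 ± 0.25 (adjusted p = 0.0492), and leaving out 1 library ended the call in 10 of 12 fits, among them every fit without a library of the YY2 experiment, with values from 0.41 to 0.63 and adjusted p from 0.0616 to 0.217. The difference between the knockdowns was 2.45 ± 0.37 (adjusted p = 9.21e-06). YY1, the paralog of YY2, had log2 fold changes of -0.07 with shFOXRED1 and 0.00 with shYY2, a difference of -0.07 (95% interval -0.19 to 0.05, adjusted p = 0.312). MBTPS2, named after its values were seen because both shYY2 targets match one of its transcripts, had 52.1 to 53.8 CPM with shYY2 and 70.7 to 71.9 CPM in that shControl, and fell there by 0.43 (adjusted p = 5.38e-06). Its value with shFOXRED1 was -0.05 (adjusted p = 0.567), and the difference was 0.37 (adjusted p = 0.00156).

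The YY2 knockdown changed more genes, and by more, than the FOXRED1 knockdown. With shYY2, 5597 genes were higher and 5771 lower, 32.6% and 33.7% of genes tested, 66.3% in all. With shFOXRED1, 3315 were higher and 3699 lower, 19.3% and 21.6%, 40.9% in all. The median size of the log2 fold change was 0.482 with shYY2 and 0.256 with shFOXRED1. A change of at least 2-fold was called for 1885 higher and 1479 lower genes with shYY2, and for 456 and 273 with shFOXRED1. The effects themselves differed in 54.4% of genes tested: the log2 fold change was higher with shFOXRED1 for 4801 genes (28%) and lower for 4533 (26.4%), and for 1428 and 1557 of these the effects differed by at least 2-fold. Across the 17146 genes the 2 effects had a Pearson's r of 0.213 and a Spearman's rho of 0.236, a description across genes, which share the libraries and are not independent replicates. Over the 14422 genes with a mean of at least 1 CPM, r was 0.259.

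Of the genes that rose with shFOXRED1, 49.6% also rose with shYY2, 21.7% fell with it and 28.7% were not called there. Of those that fell with shFOXRED1, 57.1% also fell with shYY2, 24% rose and 19% were not called. Seen from the larger list, the shared genes made up 29.4% of the genes that rose and 36.6% of those that fell with shYY2. Shared genes, called in the same direction in both experiments, were 1645 higher and 2112 lower ones, 9.59% and 12.3% of genes tested. Opposed genes, called in both with opposite sign, were 720 that rose with shFOXRED1 and fell with shYY2 (4.2%) and 886 with the reverse pattern (5.17%). A gene was taken as changed with 1 knockdown only when it changed by at least 2-fold there, was not called in the other, had its whole 95% interval within 1.5-fold there, and the difference passed the test. This held for 275 genes higher (1.6%) and 362 lower (2.11%) with shYY2 only, and for 11 higher (0.0642%) and 25 lower (0.146%) with shFOXRED1 only. The larger counts stand beside a larger number of changes of at least 2-fold with shYY2, given above. Without shFOXRED1 replicate 3, the library that stood apart, the shared genes were 1861 higher and 2281 lower, the opposed genes 909 and 1012, the genes changed with shYY2 only 247 and 341 and those with shFOXRED1 only 11 and 26, while shFOXRED1 itself changed 3728 genes up and 3964 down and the difference was called for 5046 and 4701. In every class the shControl libraries of the 2 experiments also differed for most genes, from 68.8% to 83.4% of the class.

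**Figure D1:**
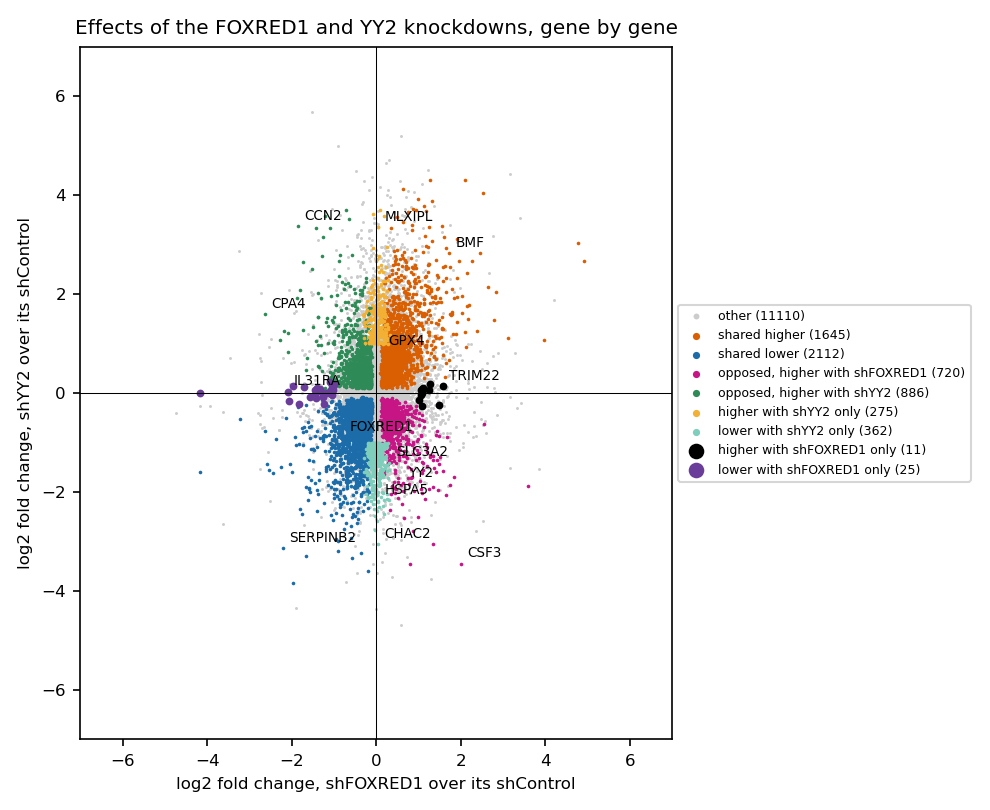
Log2 fold change of each of 17146 genes with shFOXRED1 (x axis) and shYY2 (y axis), each over its own shControl, coloured by class with the count in the legend. Points spread further along the y axis than along the x axis, and the opposed genes, such as CSF3 at 1.99 and -3.45, fill the upper left and lower right quadrants.

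Among the shared genes, the change was usually larger with shYY2. The shared higher genes had medians of 0.407 with shFOXRED1 and 0.721 with shYY2; the difference was called for 835 of them, 745 larger with shYY2 and 90 larger with shFOXRED1. The shared lower genes had medians of -0.367 and -0.645, with 1048 larger falls with shYY2 and 203 larger falls with shFOXRED1 among 1251 called differences. A change of at least 2-fold in both was found for 126 higher and 59 lower genes.

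BMF, which encodes a pro-apoptotic BH3-only member of the BCL2 family, had 154, 170.2 and 151 CPM with shFOXRED1 against 50.6, 49.0 and 44.2 CPM in its shControl. With shYY2 it had 100.5, 102 and 102 CPM against 13.8, 14.5 and 14.6 CPM. Every knockdown library lay above its shControl, from different starting levels. The rise was 1.72 on the log2 scale with shFOXRED1 and 2.83 with shYY2, a difference of -1.10 ± 0.09 (SE, adjusted p = 7.23e-10). The other shared higher genes named by the same rule were CATSPERG, a subunit of the sperm calcium channel (2.15 and 1.76), RAET1G, a ligand of the NKG2D receptor with close paralogs that may share its reads (1.92 and 3.11), IL17REL (2.02 and 1.96) and BNIP5 (1.65 and 2.05), with shFOXRED1 given first. Their differences did not pass the test (adjusted p = 0.469, 0.0762, 0.911 and 0.204), except that the RAET1G difference passed without shControl_FOXRED1 replicate 1 (-1.51) or shFOXRED1 replicate 1 (-1.60), and that of BNIP5 without shControl_YY2 replicate 3 (-0.80).

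SERPINB2, an inhibitor of plasminogen activators, had 3.48, 5.01 and 5.02 CPM with shFOXRED1 and 20.7, 20.1 and 20.9 CPM in its shControl. The shYY2 libraries had 7.67, 8.38 and 8.47 CPM and in that shControl 71.0, 71.7 and 72.6 CPM. All knockdown libraries lay well under their shControl. The log2 fold changes of -2.20 and -3.13 differed by 0.93 ± 0.14 (adjusted p = 1.06e-05). NAV3, a microtubule-associated neuron navigator, fell by 1.80 and 2.34. CSF2, which encodes the cytokine GM-CSF, fell by 1.67 and 3.29, with the larger fall under shYY2 (difference 1.62 ± 0.43, adjusted p = 0.0027). AOX1, an aldehyde oxidase, had -2.46 and -1.61, and IGFN1 -1.66 and -1.89; for these the difference was not called (adjusted p = 0.302 and 0.737), and AOX1 stood under 0.3 CPM in all 3 shFOXRED1 libraries.

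The opposed genes moved apart by up to 5.44 on the log2 scale among those named. CSF3, which encodes the granulocyte growth factor G-CSF, had 1.71, 1.02 and 1.29 CPM with shFOXRED1 and 0.328, 0.462 and 0.202 CPM in its shControl. In the YY2 experiment, CSF3 had 1.53, 1.09 and 0.597 CPM and in that shControl 11.6, 12.0 and 11.3 CPM. The groups did not overlap in either experiment, and the knockdown libraries of both ended at similar levels, from shControl levels that differed by -5.10 on the log2 scale. CSF3 rose by 1.99 ± 0.38 with shFOXRED1 and fell by 3.45 with shYY2 (difference 5.44 ± 0.43, adjusted p = 5.3e-10). CSF1, the macrophage growth factor, was opposed too, with 0.84 with shFOXRED1 and -1.05 with shYY2.

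SLC6A14, an amino acid transporter of the plasma membrane, had 1.44 and -1.36. ATF5, a stress-induced bZIP transcription factor, had 23.8, 25.3 and 21.7 CPM with shFOXRED1 and 11.4, 9.96 and 9.36 CPM in its shControl. Under shYY2 the level was 3.19, 4.16 and 3.37 CPM against 8.55, 7.18 and 8.83 CPM. The shControl levels were close, and the knockdowns moved ATF5 by nearly equal amounts in opposite directions, 1.20 ± 0.11 and -1.20 ± 0.14 (difference 2.40 ± 0.17, adjusted p = 1.51e-10). THSD7A, a membrane protein with thrombospondin repeats, had 1.42 and -1.60, and KLHDC7B, a kelch domain protein, 1.24 and -1.93.

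In the other direction, CCN2, a matricellular protein also known as connective tissue growth factor, had 2.26, 1.83 and 1.77 CPM with shFOXRED1 and 5.79, 8.97 and 6.94 CPM in its shControl. With shYY2 it had 155, 159.5 and 159.6 CPM against 14.7, 15.2 and 15.7 CPM. It fell by 1.86 with shFOXRED1 and rose by 3.38 ± 0.08 with shYY2 (difference -5.24 ± 0.18, adjusted p = 7.27e-16), with no overlap in either experiment. CPA4, a secreted carboxypeptidase, had 1.55, 2.26 and 2.10 CPM with shFOXRED1 against 12.5, 13.1 and 11.2 CPM. The shYY2 libraries had 27.8, 29.1 and 31.2 CPM against 9.33, 9.19 and 10.7 CPM. The shControl levels were alike to within 0.33 on the log2 scale, and the effects were -2.64 and 1.59 (difference -4.23 ± 0.17, adjusted p = 1.32e-14). SCN4A, a voltage-gated sodium channel, had -1.73 and 2.65, and CHST6, a carbohydrate sulfotransferase, -1.21 and 3.58. FKBP1B, a binding protein of the ryanodine receptor, had -1.51 and 2.50, and its fall with shFOXRED1 was lost without shControl_FOXRED1 replicate 3 (-1.23, adjusted p = 0.0641).

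**Figure D2:**
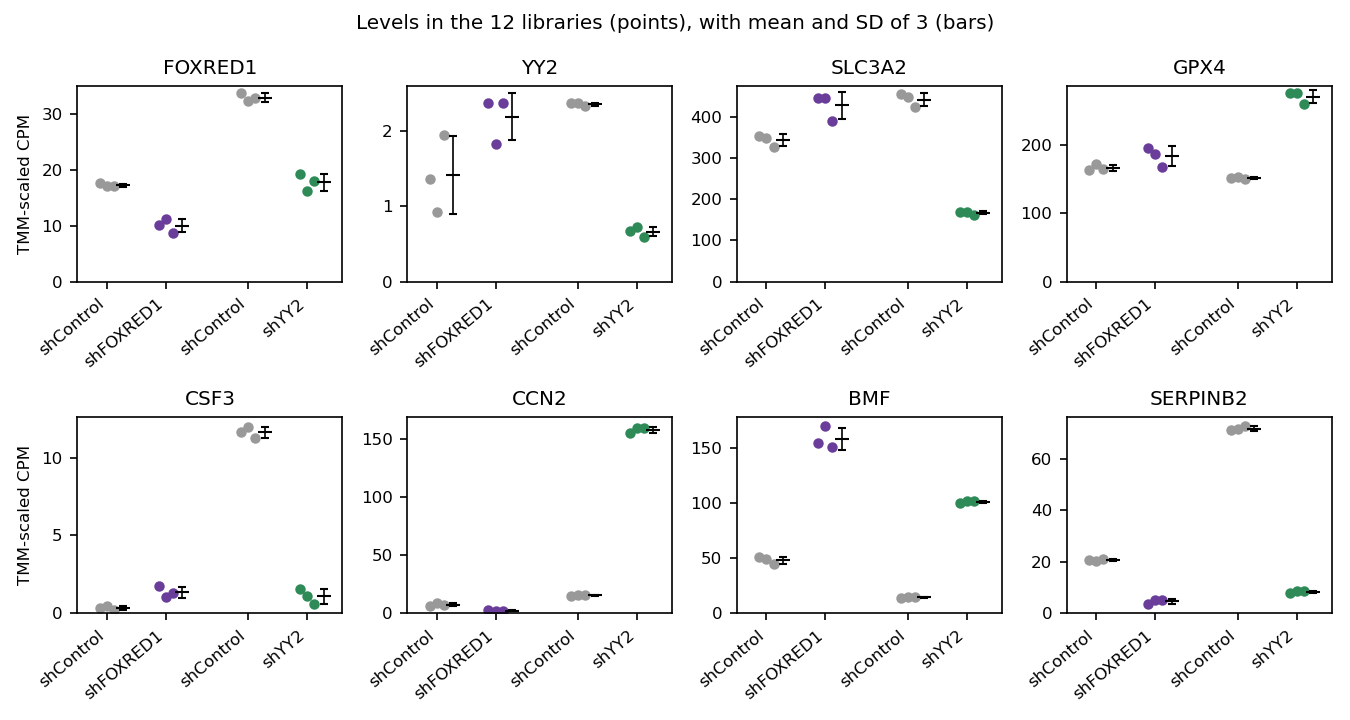
TMM-scaled CPM (y axis, from 0) of 8 genes in the 12 libraries, as points by group, with the mean and SD of 3 beside them. FOXRED1 is lower in both knockdowns, SLC3A2, CSF3 and CCN2 move in opposite directions, BMF rises and SERPINB2 falls in both, and the shFOXRED1 and shControl points of YY2 and of GPX4 overlap.

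The genes changed with shYY2 only included PLIN5 and MLXIPL among those higher and CHAC2 and WDR4 among those lower. PLIN5, a lipid droplet coat protein, had 6.45, 6.57 and 6.08 CPM with shYY2 and 0.607, 0.475 and 0.456 CPM in its shControl. In the FOXRED1 experiment it had 2.54, 1.94 and 2.10 CPM with shFOXRED1 and 2.19, 2.64 and 2.09 CPM in the shControl, which overlapped. The rise with shYY2 was 3.62 ± 0.21 (adjusted p = 1.59e-12), and the value with shFOXRED1 was -0.07 (95% interval -0.47 to 0.33). MLXIPL, which encodes the glucose-sensing transcription factor ChREBP, had 21.7, 18.1 and 20.4 CPM with shYY2 against 2.10, 2.02 and 1.78 CPM. It had 15.8, 17.0 and 11.8 CPM with shFOXRED1 against 14.6, 13.9 and 14.8 CPM, an overlap. It rose by 3.35 ± 0.15 with shYY2 and its value with shFOXRED1 was 0.05 (95% interval -0.19 to 0.28). SESN3, a sestrin that restrains mTORC1, rose by 3.57 with shYY2 (0.17 with shFOXRED1), ATP2A3, a calcium pump of the endoplasmic reticulum, by 3.36 (0.04), and SMIM10L2A, which has a near-identical copy that may share its reads, by 3.70 (0.09). For all 5 the shControl of the YY2 experiment was the lower of the 2, by 1.504 to 3.62 on the log2 scale.

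CHAC2, an enzyme that cleaves glutathione, had 1.29, 1.39 and 1.68 CPM with shYY2 and 13.1, 12.5 and 11.2 CPM in its shControl. It had 5.02, 4.52 and 6.25 CPM with shFOXRED1 and 4.43, 4.15 and 6.67 CPM in that shControl. Only the groups of the YY2 experiment were apart, by -3.06 ± 0.19 on the log2 scale (adjusted p = 3.24e-12; 0.05 with shFOXRED1, 95% interval -0.31 to 0.41). WDR4, a subunit of a tRNA methyltransferase, fell by 2.76 with shYY2 (-0.04 with shFOXRED1), from shControl levels that differed little between experiments (-0.26). ZNF239, a zinc finger protein, fell by 2.48 (-0.03), MPDU1, needed for the use of dolichol-linked mannose in glycosylation, by 2.44 (0.18), and POP1, a protein subunit of RNase P and RNase MRP, by 2.39 (0.02).

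The 36 genes changed with shFOXRED1 only were few, and the 11 higher ones included 3 interferon-related genes. TRIM22, an interferon-induced ubiquitin ligase, had 55.7, 51.0 and 58.1 CPM with shFOXRED1 and 18.6, 17.0 and 19.5 CPM in its shControl. In the YY2 experiment, TRIM22 had 7.67, 5.73 and 6.84 CPM and in that shControl 6.29, 6.58 and 5.58 CPM, which overlapped. It rose by 1.58 ± 0.08 with shFOXRED1 (adjusted p = 3.04e-12), and the value with shYY2 was 0.14 (95% interval -0.12 to 0.39). IFI6, an interferon-induced mitochondrial protein, had 368, 355 and 285 CPM with shFOXRED1 against 141, 144 and 131 CPM. In the YY2 experiment its level was lower throughout, 25.0 to 25.9 CPM with shYY2 and 21.6 to 23.1 CPM in the shControl. The effects were 1.28 and 0.19. LGALS9, which encodes galectin-9, also rose with shFOXRED1 only (1.08); these 3 were grouped after their values were seen. GPNMB, a glycoprotein of lysosomes and the cell surface, rose by 1.49, the actin-binding protein SHROOM1 by 1.249, and CCDC159 by 1.08. Among the others, STAG3L1 (a pseudogene), the water channel AQP11, the protocadherin PCDHB14 and MCRIP1, rose by 1.01 to 1.10. The count of 11 became 18 without shControl_FOXRED1 replicate 3, and 6, 7 and 6 without replicates 1, 2 and 3 of shControl_YY2.

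The 25 genes lower with shFOXRED1 only had medians of -1.34 with shFOXRED1 and 0.0268 with shYY2 on the log2 scale, medians that the rule itself sets apart. IL31RA, a cytokine receptor chain, had 1.66, 2.53 and 2.44 CPM with shFOXRED1 and 9.18, 9.30 and 9.77 CPM in its shControl. Under shYY2 the level was 6.14, 6.15 and 6.35 CPM and in that shControl 6.07, 5.99 and 6.24 CPM. It fell by 2.09 with shFOXRED1, without overlap, while the value with shYY2 was 0.03 (95% interval -0.24 to 0.30). SCEL, a protein of the cornified envelope, fell by 2.06, the membrane aminopeptidase ANPEP by 1.96, the chondroitin sulfotransferase CHST11 by 1.84, and PAQR5, a membrane progestin receptor, by 1.70; with shYY2 these 4 had -0.17, 0.14, -0.21 and 0.13.

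CAV1 and ITGB1 are named besides the rule, after their values were seen, as the most abundant of the 25. CAV1, the main protein of caveolae, had 63.1, 68.8 and 69.5 CPM with shFOXRED1 and 181, 182 and 183 CPM in its shControl. It had 1847, 1888 and 1932 CPM with shYY2 and 1797, 1826 and 1844 CPM in that shControl. It fell by 1.44 with shFOXRED1, from a shControl level that was itself lower by -3.32 on the log2 scale than in the YY2 experiment, where the value was 0.05 (95% interval -0.02 to 0.13). ITGB1, the integrin beta 1 chain, had 877, 869 and 921 CPM with shFOXRED1 against 1768, 1833 and 1893 CPM, and 1588, 1567 and 1594 CPM with shYY2 against 1632, 1618 and 1638 CPM. Its shControl levels differed by 0.17 on the log2 scale, and it fell by 1.04 with shFOXRED1, against -0.04 with shYY2 (95% interval -0.11 to 0.03). Its pseudogene ITGB1P1 (-1.06) can share its reads and is not separate evidence. The receptor tyrosine kinase AXL (-1.12), the membrane-cytoskeleton linker moesin (MSN, -1.44), the protease inhibitor SERPINE2 (-1.42), nestin (NES, -1.23), the catenin-like CTNNAL1 (-1.22), the glycolytic aldolase ALDOC (-1.34) and KIAA0040 (-1.34) were of this kind too. Of the other members, PHACTR3, SCHIP1, RHEBL1, ANP32B and ATXN1-AS1 and 3 genes without a symbol fell by 1.00 to 1.57. IFNL1, an interferon, passed the same test on counts of 0, 0 and 0 with shFOXRED1 against 1, 5 and 0, which overlap, while the libraries of the YY2 experiment had 149 to 198 counts; no fold is given for it, and limma-voom did not call its difference (adjusted p = 0.0659).

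**Figure D3:**
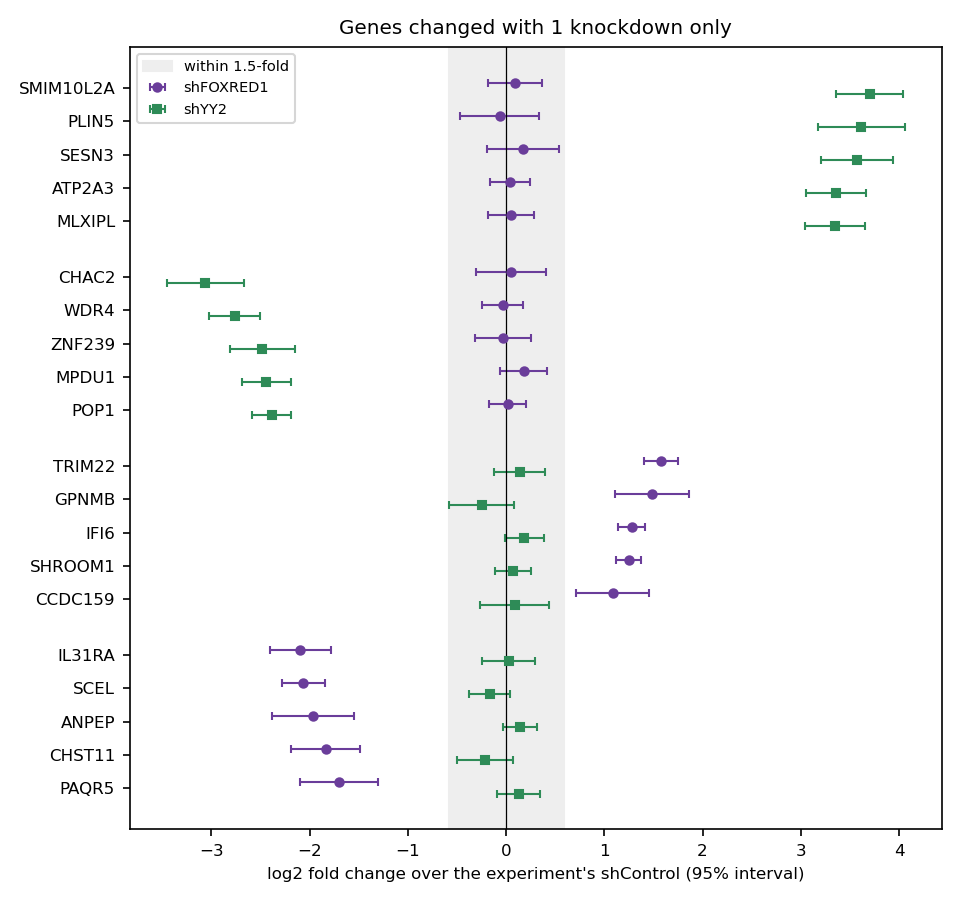
Log2 fold changes with 95% intervals (x axis) with shFOXRED1 (circles) and shYY2 (squares) of the 5 genes named in each direction among those changed with 1 knockdown only. The shaded band is a change within 1.5-fold, which holds the whole interval of the knockdown that left the gene uncalled. The log2 fold change of the other knockdown lies beyond 2-fold, though its interval can reach under 2-fold, as for CCDC159.

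The promoters were read for the core that YY proteins bind, since YY2 is a DNA-binding factor and FOXRED1 is not. RefSeq promoters (GRCh38.p14, 250 bases before to 50 after a start) were matched by symbol for 11445 of the 17146 genes. The motif GCCATNTT, on either strand, was present in 11.6% of these, and the longer AAGATGGCG, whose matches all lie within matches of the first, in 4.29%. Among genes lower with shYY2 only the shares were 14.5% (40 of 276) and 6.88%, and among those higher with shYY2 only 7.61% (15 of 197) and 1.52%. The opposed genes that rose with shFOXRED1 and fell with shYY2 held GCCATNTT in 14.6%, and those of the reverse pattern in 9.28%. The shared lower genes held it in 13.5% and the shared higher ones in 8.08%. None of the 7 promoters of genes higher, and none of the 15 of genes lower, with shFOXRED1 only held either motif. These shares are a description of the letters, with no test; they were higher for classes that fell with shYY2 than for those that rose, whatever the direction with shFOXRED1. The E2F motifs TTTCGCGC and TTTGGCGC, either of them on either strand, were present in 2.3% of all promoters and in 4.63% of those of shared lower genes.

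Promoters of QTRT1, MPDU1 and RBM23, all lower with shYY2 and not with shFOXRED1, are shown with the matches to the YY motifs in capitals, the first at chr19:10701189-10701488, plus strand, the second at chr17:7583397-7583696, plus strand, and the third at chr14:22919100-22919399, minus strand. They are examples that hold a match. Promoters of named genes that rose with shYY2, CATSPERG and ECSIT among them, hold GCCATNTT too.
QTRT1: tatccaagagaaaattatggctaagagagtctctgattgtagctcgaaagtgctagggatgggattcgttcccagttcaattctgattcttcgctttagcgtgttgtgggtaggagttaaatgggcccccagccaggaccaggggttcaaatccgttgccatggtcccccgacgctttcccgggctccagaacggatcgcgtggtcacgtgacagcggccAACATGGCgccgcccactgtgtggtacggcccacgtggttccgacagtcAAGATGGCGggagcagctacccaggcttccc
MPDU1: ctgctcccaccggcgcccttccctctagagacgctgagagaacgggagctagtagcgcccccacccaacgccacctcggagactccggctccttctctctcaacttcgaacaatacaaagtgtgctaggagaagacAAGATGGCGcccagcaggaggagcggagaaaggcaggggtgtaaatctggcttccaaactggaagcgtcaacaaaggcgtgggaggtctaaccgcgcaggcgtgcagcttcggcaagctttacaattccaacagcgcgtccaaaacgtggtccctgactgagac
RBM23: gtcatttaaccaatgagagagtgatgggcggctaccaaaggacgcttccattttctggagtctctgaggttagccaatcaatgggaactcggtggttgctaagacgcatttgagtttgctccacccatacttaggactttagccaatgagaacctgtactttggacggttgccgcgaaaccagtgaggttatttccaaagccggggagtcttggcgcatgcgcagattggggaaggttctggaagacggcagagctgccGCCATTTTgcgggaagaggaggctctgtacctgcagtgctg
QTRT1, the catalytic subunit of the queuine tRNA transferase, had 14.6, 14.0 and 13.4 CPM with shYY2 and 33.8, 30.7 and 31.8 CPM in its shControl. It had 21.1, 25.6 and 17.2 CPM with shFOXRED1 and 22.7, 17.7 and 21.6 CPM in that shControl, an overlap. It fell by 1.20 with shYY2 against 0.05 with shFOXRED1 (difference 1.249 ± 0.159, adjusted p = 7.79e-07). RBM23, an RNA-binding protein, fell by 0.55 with shYY2 and rose by 0.24 with shFOXRED1 (difference 0.79 ± 0.08, adjusted p = 3.73e-08). QTRT1 and RBM23 are among the genes that the study listed as co-regulated by TRIM15 and YY2, a list drawn in part from these YY2 knockdown data, so their fall with shYY2 is not independent evidence. MPDU1 came from the rule for named genes.

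For 27 lists of genes with a common role, the members called in each experiment were counted. Their medians can be read against those of all genes tested, which were 0.0168 with shFOXRED1, -0.00167 with shYY2 and 0.0262 for the difference, and their counts against the shares of all genes given above.

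**Figure D4:**
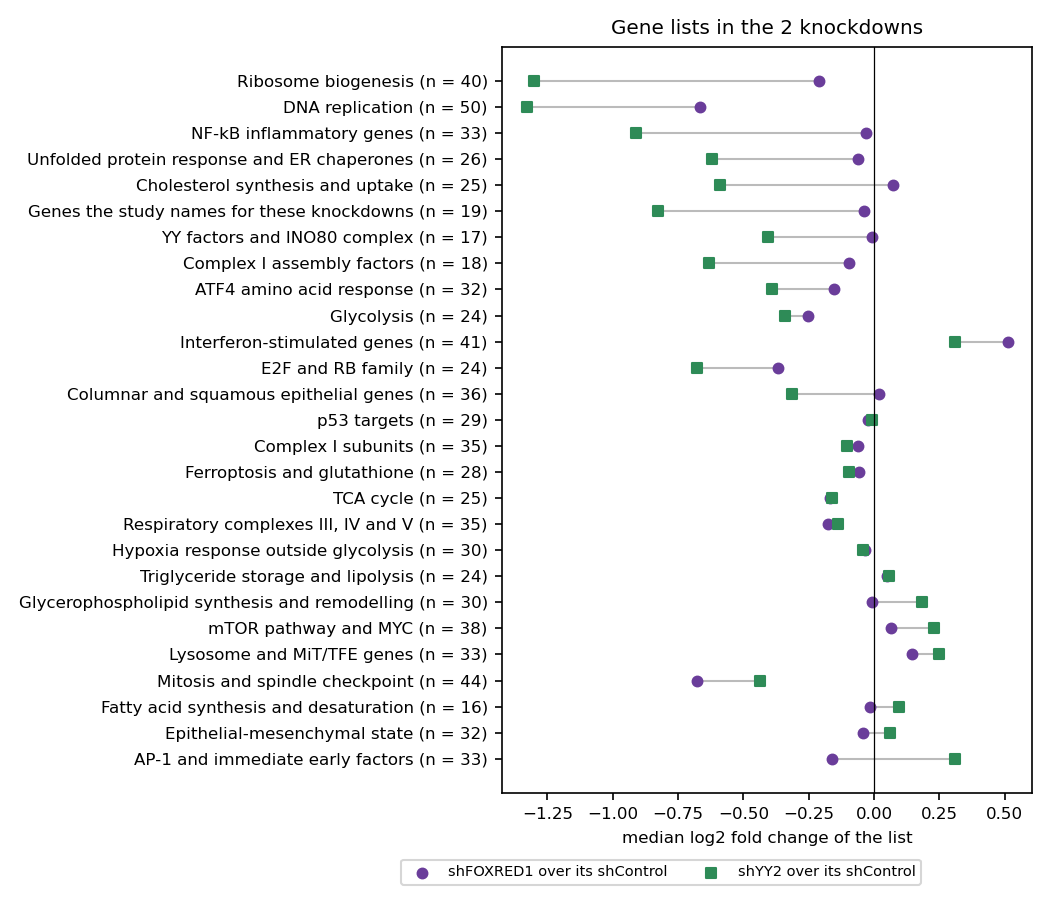
Median log2 fold change of each of 27 gene lists with shFOXRED1 (circles) and shYY2 (squares), ordered by the median difference of their members, with the number of genes tested. Ribosome biogenesis shows the widest gap, medians of -0.211 and -1.3, and DNA replication and mitosis lie below 0 with both.

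DNA replication genes fell with both knockdowns, further with shYY2. Of 50 tested, 48 fell with shFOXRED1 and 48 with shYY2, 46 were shared, and the medians were -0.667 and -1.33. The fall was smaller with shFOXRED1 for 40 members and larger for 2, CDT1 and RFC1. MCM10, a factor of origin firing, had 5.30, 5.76 and 7.67 CPM with shFOXRED1 against 11.2, 12.3 and 11.1 CPM. With shYY2 it had 4.97, 4.58 and 5.76 CPM against 46.4, 47.0 and 47.4 CPM. Both knockdowns reached similar levels from shControl levels apart by -2.03, and the log2 fold changes were -0.90 and -3.19 (difference 2.29 ± 0.17, adjusted p = 1.29e-10). CLSPN, an adaptor of the replication checkpoint, had -0.60 and -2.93. CDT1, a licensing factor, had -0.53 and -0.04, and RFC1, the large clamp loader subunit, -0.44 and 0.04. E2F1, the transcription factor of many of these genes, had 20.9, 21.7 and 18.7 CPM with shFOXRED1 against 37.1, 40.4 and 33.7 CPM. The shYY2 libraries had 15.9, 17.8 and 15.7 CPM against 65.9, 66.8 and 68.5 CPM, and it fell in both by -0.85 and -2.03 on the log2 scale (difference 1.17 ± 0.11, adjusted p = 6.38e-09). In these bulk libraries, fewer cells in a phase of the cycle and less RNA per cell cannot be told apart.

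Mitosis genes also fell with both, and more of them further with shFOXRED1. Of 44 tested, 40 fell with shFOXRED1 and 32 with shYY2, 31 were shared, and the medians were -0.679 and -0.438. The effect was lower with shFOXRED1 for 22 members and higher for 4. CDC25C, a phosphatase that activates CDK1, had 4.41, 4.14 and 4.62 CPM with shFOXRED1 against 7.98, 8.24 and 7.48 CPM. In the YY2 experiment, CDC25C had 22.1, 21.5 and 22.1 CPM against 19.0, 17.9 and 19.2 CPM. It fell by 0.85 with shFOXRED1 and rose by 0.23 with shYY2 (difference -1.08 ± 0.14, adjusted p = 6.11e-07), though the rise was lost without shControl_YY2 replicate 2 (0.19) and without shYY2 replicate 1 (0.22). PTTG1, the securin, had -0.82 and 0.21. CDC25A, which acts at entry into S phase, fell much further with shYY2, -0.45 against -2.62, and SPC25, a kinetochore protein at about 1 CPM, had -0.03 and -1.66.

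Ribosome biogenesis genes fell mainly with shYY2. Of 40 tested, 37 fell with shYY2 and 21 with shFOXRED1, with medians of -1.3 and -0.211, and the difference was called for 36 members in this direction and 2 in the other. The class changed with shYY2 only held 11 of the 40. RRP9, a component of the small subunit processome, had 10.1, 8.50 and 9.99 CPM with shYY2 and 37.4, 36.2 and 37.5 CPM in its shControl. It had 19.0, 21.0 and 13.5 CPM with shFOXRED1 and 19.0, 19.8 and 17.7 CPM in that shControl. Only the first pair was apart, and the difference was 1.89 ± 0.16 (adjusted p = 1.82e-09). UTP4, of the same processome, had 0.08 with shFOXRED1 and -1.72 with shYY2. The 2 members of the other direction were POLR1E, a subunit of RNA polymerase I (-0.42 and 0.01), and RRN3, its initiation factor, whose pseudogene copies may share its reads (-0.26 and 0.86, a difference lost with limma-voom, adjusted p = 0.128). MTOR, a kinase that promotes ribosome production, fell with both, by 0.16 with shFOXRED1 and 0.97 with shYY2 (difference 0.81 ± 0.07, adjusted p = 1.36e-09), the former lost without shFOXRED1 replicate 1 (-0.13, adjusted p = 0.0546). MYC, a transcription factor of ribosome biogenesis genes, moved in the other order: it fell by 0.48 and 0.30, and the difference of -0.18 ± 0.07 (adjusted p = 0.0232) was lost without shControl_FOXRED1 replicate 2 (-0.13), shControl_YY2 replicate 3 (-0.16) or shYY2 replicate 1 (-0.16).

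The chaperones of the endoplasmic reticulum fell with shYY2. Of 26 genes of the unfolded protein response, 24 fell with shYY2, while 6 rose and 11 fell with shFOXRED1; the medians were -0.622 and -0.0621. HSPA5, the chaperone BiP, had 362, 351 and 350.3 CPM with shYY2 and 1651, 1581 and 1581 CPM in its shControl. It had 901, 918 and 937 CPM with shFOXRED1 and 867, 892 and 922 CPM in that shControl, an overlap. It fell by 2.18 with shYY2, and the value with shFOXRED1 was 0.04 (95% interval -0.03 to 0.11; difference 2.22 ± 0.05, adjusted p = 6.18e-18). SDF2L1, a cofactor of BiP, had -0.03 with shFOXRED1 and -1.70 with shYY2. SEL1L, the adaptor of the HRD1 ubiquitin ligase, was the main exception and fell further with shFOXRED1, -1.05 against -0.17 (difference -0.88 ± 0.07, adjusted p = 1.03e-09), the latter lost with upper quartile scaling (adjusted p = 0.164). Among 32 genes of the amino acid response driven by ATF4, 16 fell with shFOXRED1 and 18 with shYY2, 8 of them shared, and 8 were opposed. ASNS, asparagine synthetase, had -1.04 with shFOXRED1 and 0.33 with shYY2, its rise lost without shYY2 replicate 1 (0.24), shYY2 replicate 3 (0.32) or shControl_YY2 replicate 2 (0.31). SLC7A5, a light chain of amino acid transporters, had 0.01 and -1.72.

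Of the 25 genes of cholesterol synthesis and uptake, 17 fell and 5 rose with shYY2 and 5 fell and 6 rose with shFOXRED1, with medians of -0.589 and 0.0741, and the difference was called for 18 members as higher with shFOXRED1 and for 2 as lower. HMGCS1, the synthase that makes HMG-CoA, had 90.3, 94.2 and 91.6 CPM with shFOXRED1 against 77.0, 80.4 and 85.1 CPM. Under shYY2 the level was 44.9, 46.6 and 47.6 CPM against 104, 100.2 and 104 CPM. The groups did not overlap in either experiment, and its log2 fold changes were 0.19 and -1.15 (difference 1.34 ± 0.07, adjusted p = 7.6e-13), the former lost without a filter on low counts (adjusted p = 0.115). The difference of SREBF2, the transcription factor of the pathway, was -0.41 ± 0.06 (adjusted p = 6.23e-06), with a value of -0.07 under shFOXRED1 and a rise of 0.33 under shYY2.

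Other lipid lists had differences in both directions, with the shFOXRED1 effect higher and lower for 6 and 8 of 16 genes of fatty acid synthesis, 9 and 10 of 24 of triglyceride storage, and 8 and 11 of 30 of glycerophospholipid synthesis. FASN, the fatty acid synthase, had 492, 507 and 451 CPM with shFOXRED1 against 460.0, 430.0 and 421 CPM, which overlapped. With shYY2 it had 206, 209 and 202 CPM against 420.1, 430.5 and 390.0 CPM, and it fell there by 1.01. Its value with shFOXRED1 was 0.15 ± 0.05 (adjusted p = 0.0176), a call lost without either of shFOXRED1 replicates 1 and 2 or shControl_FOXRED1 replicates 2 and 3 (0.10 to 0.13), and the difference was 1.16 ± 0.07 (adjusted p = 6.25e-12). Of the lipid droplet genes, PLIN4 had 0.28 with shFOXRED1 and rose by 2.87 with shYY2, next to PLIN5 described above. G0S2, an inhibitor of the triglyceride lipase, had -0.12 and fell by 1.33, and HILPDA, another lipase inhibitor, was opposed with 0.59 and -0.70. In phospholipid synthesis, choline kinase CHKA had -0.16 and 1.11 and phospholipase PLD1 -0.50 and 1.39, opposed with a rise under shYY2, while the acyltransferase MBOAT7 had 0.71 and -0.34, the latter lost with upper quartile scaling (-0.26, adjusted p = 0.0527) or without shControl_YY2 replicate 2 (-0.30, adjusted p = 0.0522).

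The assembly factors of respiratory complex I fell mainly with shYY2. Of 35 subunit genes encoded in the nucleus, 9 fell and 2 rose with shFOXRED1 and 15 fell and 7 rose with shYY2, with medians of -0.0626 and -0.104 and a called difference for 12. Of 18 assembly factors, FOXRED1 among them, 3 fell with shFOXRED1 and 15 with shYY2, with medians of -0.0961 and -0.632. The other 2 that fell with shFOXRED1 were NUBPL, which carries iron-sulfur clusters (-0.56), and TMEM126B, a membrane factor of assembly (-0.18). NDUFAF4, an assembly factor, had 5.77, 5.91 and 5.97 CPM with shYY2 and 16.9, 15.0 and 17.7 CPM in its shControl. With shFOXRED1 it had 12.8, 12.4 and 10.0 CPM and in that shControl 10.4, 12.8 and 13.1 CPM. Only the YY2 experiment showed a gap, and the effects were -1.49 with shYY2 and -0.03 with shFOXRED1 (difference 1.46 ± 0.17, adjusted p = 1.38e-07). TMEM70, which acts in the assembly of complexes I and V, had -0.07 with shFOXRED1 and -1.51 with shYY2, while ECSIT, also an innate immune adaptor, had 0.09 and rose by 0.86 with shYY2. The 37 mitochondrial genes were at 0 counts in all libraries, so the subunits encoded there were not measured.

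Inflammatory genes of the NF-kB pathway fell with shYY2 and divided with shFOXRED1. Of 33 tested, 26 fell and 4 rose with shYY2, and 7 fell and 12 rose with shFOXRED1, with medians of -0.911 and -0.0311. CXCL8, the neutrophil chemokine IL-8, had 31.5, 29.6 and 34.5 CPM with shFOXRED1 against 37.3, 33.4 and 38.4 CPM, which overlapped. The shYY2 libraries had 8.78, 8.20 and 8.74 CPM against 98.1, 104 and 108 CPM. The fall with shYY2 was 3.59 on the log2 scale. With shFOXRED1 the value was -0.20 ± 0.07 (adjusted p = 0.0282), a call lost without either of shFOXRED1 replicates 1 and 2 or shControl_FOXRED1 replicates 1 and 3 (-0.15 to -0.19), and the difference was 3.39 ± 0.11 (adjusted p = 2.38e-16). IL1B, which encodes interleukin-1 beta, fell further with shFOXRED1: it had 7.06, 7.37 and 7.20 CPM against 24.3, 22.9 and 23.5 CPM, and with shYY2 5.22, 6.51 and 5.21 CPM against 8.22, 9.19 and 9.84 CPM. Its log2 fold changes were -1.71 and -0.69 (difference -1.02 ± 0.16, adjusted p = 8.46e-06), and those of IL1A were -1.75 and -1.05.

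Most interferon-stimulated genes rose with shFOXRED1, and they moved in both directions with shYY2. Of 41 tested, 34 rose with shFOXRED1 and the other 7 were not called, and 26 rose and 8 fell with shYY2; 22 were shared higher, and the medians were 0.512 and 0.31. The opposed members were 7, all of them higher with shFOXRED1 and lower with shYY2. RSAD2, the antiviral enzyme viperin, had 60.2, 55.8 and 62.7 CPM with shFOXRED1 against 27.2, 31.8 and 27.6 CPM. In the YY2 experiment, RSAD2 had 62.4, 66.5 and 63.5 CPM against 118, 119 and 117 CPM. The shFOXRED1 and shYY2 libraries ended at similar levels from shControl levels apart by -2.03, and the effects were 1.05 and -0.87 (difference 1.92 ± 0.08, adjusted p = 5.03e-14). HERC6, an interferon-induced HECT-type protein, had 0.55 and -1.36. Its relative HERC5, the ligase for ISG15, had 40.2, 40.4 and 38.4 CPM with shFOXRED1 against 36.3, 39.3 and 39.1 CPM, an overlap. Under shYY2 the level was 274, 279.7 and 284 CPM against 106, 103 and 103 CPM, and it rose there by 1.42 (difference -1.37 ± 0.07, adjusted p = 3.52e-13). GBP1, a guanylate-binding protein, rose by 1.33 with shYY2, and its rise of 0.15 with shFOXRED1 was lost with DESeq2's Wald test (adjusted p = 0.0891). That call was also lost without a filter on low counts and with separate fits (adjusted p = 0.475 and 0.0984, edgeR). Most fits that left out 1 library lost it too, among them every fit without a library of the YY2 experiment, with adjusted p up to 0.141.

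**Figure D5:**
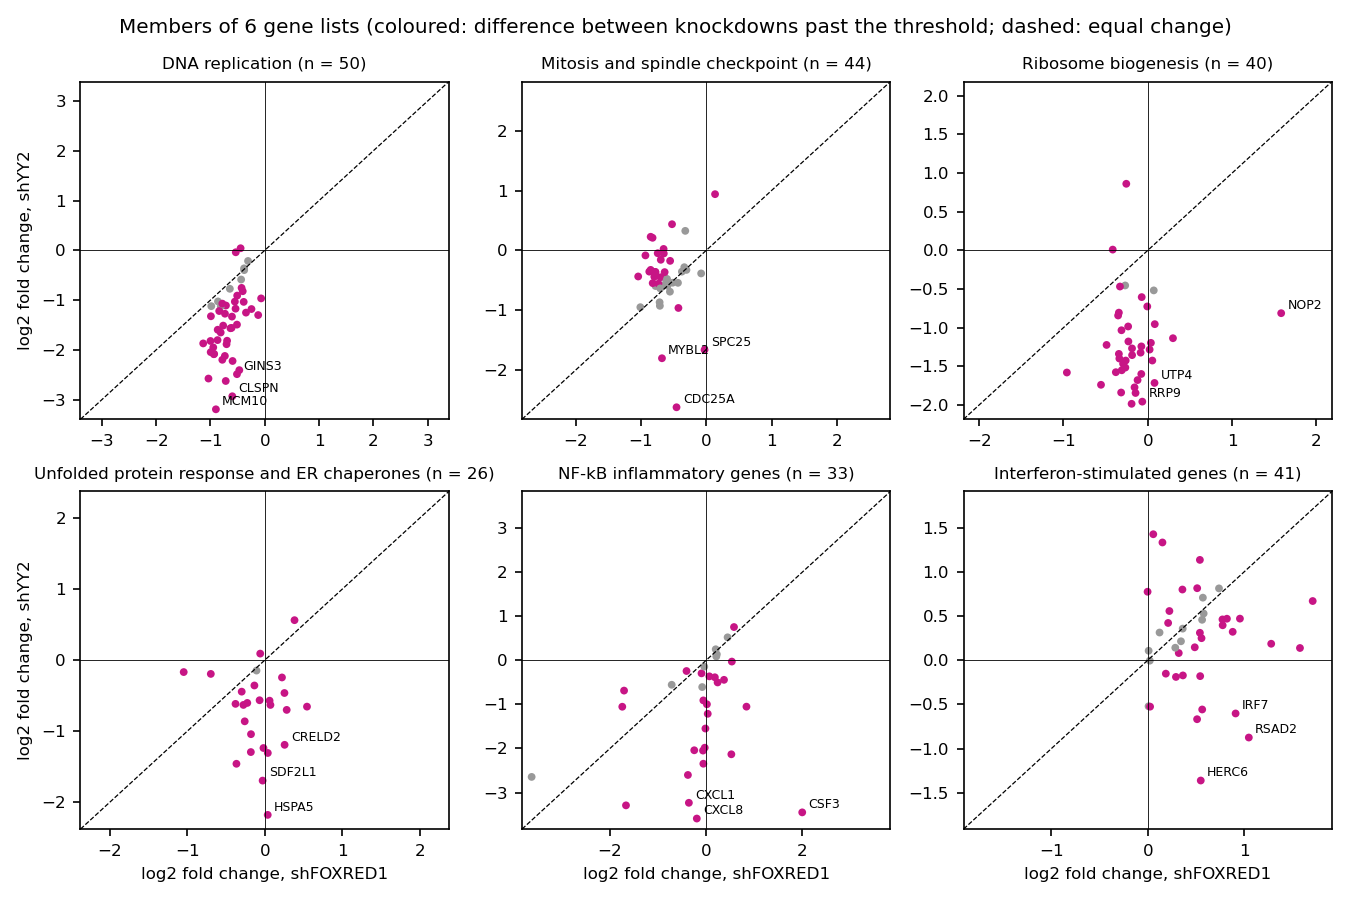
Log2 fold change of each member of 6 gene lists with shFOXRED1 (x axis) and shYY2 (y axis); coloured points have a called difference between knockdowns and the dashed line marks equal change. Most points of DNA replication, ribosome biogenesis and the unfolded protein response lie under the line (40, 36 and 21 members called), those of mitosis mostly over it (22), and interferon-stimulated genes more often under it (22) than over it (8).

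Immediate early genes rose mainly with shYY2. Of 33 tested, 20 rose and 10 fell with shYY2 and 9 rose and 16 fell with shFOXRED1; 6 were opposed with a rise under shYY2. Besides CCN2 these included EGR3, a zinc finger factor induced by growth signals, with 1.77, 2.10 and 1.49 CPM with shFOXRED1 against 3.28, 3.23 and 3.37 CPM. With shYY2 it had 17.8, 20.6 and 20.7 CPM against 3.59, 2.67 and 2.33 CPM. The shControl levels overlapped and the effects were -0.87 and 2.78 (difference -3.65 ± 0.24, adjusted p = 3e-11). ETV5, an ETS factor, and SPRY4, a feedback inhibitor of receptor tyrosine kinases, fell with both, -0.34 and -0.48 with shFOXRED1 and -1.75 and -1.63 with shYY2. Among 32 genes of the epithelial-mesenchymal state the effect was lower with shFOXRED1 for 16 and higher for 6. MMP1, a collagenase, fell with both, by 2.64 and 0.76 (difference -1.88 ± 0.07, adjusted p = 2.19e-15), and PLAUR, the urokinase receptor, had 0.33 and -0.87.

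The study drew attention to ferroptosis, a death by lipid peroxidation that the cystine transporter and GPX4 restrain. SLC3A2, the heavy chain of the cystine transporter, had 445, 446 and 389.8 CPM with shFOXRED1 and 354, 349 and 326 CPM in its shControl. The shYY2 libraries had 169, 169 and 162 CPM and in that shControl 454, 447 and 423 CPM. It rose by 0.32 ± 0.05 with shFOXRED1 (adjusted p = 2.13e-05) and fell by 1.40 with shYY2 (adjusted p = 4.39e-16), without overlap in either experiment, and the difference was 1.72 ± 0.07 (adjusted p = 1.85e-14). Its light chain SLC7A11 had -0.15 with shFOXRED1 (adjusted p = 0.0523) and -0.88 with shYY2.

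GPX4, which reduces lipid peroxides, had 196, 187 and 168 CPM with shFOXRED1 and 162, 171 and 164 CPM in its shControl, which overlapped. In the YY2 experiment, GPX4 had 276, 276 and 259.9 CPM and in that shControl 152, 152 and 149.7 CPM, all apart. The rise with shYY2 was 0.84 ± 0.05. With shFOXRED1 the value was 0.15 ± 0.05 (adjusted p = 0.0213), a call lost without either of shFOXRED1 replicates 1 and 2 or shControl_FOXRED1 replicates 1 and 3 (0.10 to 0.14), and the difference was -0.69 ± 0.07 (adjusted p = 2.33e-08). TXNRD1, thioredoxin reductase, was opposed the other way: it had 896, 926 and 942 CPM with shFOXRED1 against 1629, 1636 and 1673 CPM, and with shYY2 1699.6, 1699.5 and 1712 CPM against 1024, 1021 and 1051 CPM. The effects were -0.84 and 0.72 (difference -1.56 ± 0.05, adjusted p = 1.02e-16). TFRC, the transferrin receptor, fell by 0.22 and 2.05 (difference 1.83 ± 0.06), and SAT1, a polyamine acetyltransferase, rose by 0.21 and 1.41 (difference -1.20 ± 0.05). Over the 28 genes of the list, 10 rose and 9 fell with shFOXRED1 and 8 rose and 12 fell with shYY2, 12 of them shared.

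The 19 genes that the study names for these knockdowns were chosen on these samples and are not independent evidence of a direction. With shYY2, 17 of them fell and 2 rose, and with shFOXRED1, 9 fell and 4 rose; the difference was called for 12 as higher with shFOXRED1 and for 2 as lower. The kinetochore gene SPC24 had -0.61 and -0.52, with a difference of -0.10 (95% interval -0.42 to 0.23, adjusted p = 0.625). The neuropeptide precursor VGF had -0.83 and -0.83, with a difference of -0.01 (95% interval -0.38 to 0.36, adjusted p = 0.978). FOXRED1, SPC24 and VGF thus fell by amounts whose difference did not pass the test. INO80E, a subunit of the INO80 chromatin remodeller, had 0.11 with shFOXRED1 (adjusted p = 0.288) and fell by 0.39 with shYY2, and ATP13A1, an ATPase of the endoplasmic reticulum, had -0.01 (adjusted p = 0.885) and fell by 0.84. Of the 17 tested genes of YY factors and the INO80 complex, 13 fell with shYY2 and 5 with shFOXRED1.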

How the data were processed

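Each experiment's table holds unnormalized gene-level read counts as the authors deposited them; the submitters' processing notes name the builds hg38 and mm10, and the aligner and counter are not given in the sources used here. The labels and the methods name different library kits, so whether reads were counted by strand is not settled. The tables of the YY2 and FOXRED1 knockdowns were joined on Ensembl ID, and 99.8% of IDs were named. In R 4.3.3, genes were kept with filterByExpr of edgeR 4.0.16 (minimum count 10, minimum total 15), libraries were scaled by TMM, and 1 quasi-likelihood model of the 4 groups gave both effects and their difference, with Benjamini-Hochberg adjustment over 17146 genes and a threshold of 0.05. Of the genes tested, 13 had 0 counts in all 6 libraries of 1 experiment, so their effect there had no interval and they entered no class of genes changed with 1 knockdown only. SE was taken from the log2 fold change and the root of its F statistic, or from the working weights where F was near 0. Genes named are, per class and direction, the 5 protein-coding ones of at least 1 CPM with the largest change (the smaller of both effects for shared and opposed genes) and groups that do not overlap where called, the targets, YY1, the genes the study names, and per list up to 2 members in each direction with the largest called difference. Members, lists and tests were chosen with earlier results of these data known. The model was tested on simulated counts. Alternatives were DESeq2 1.42.0, limma-voom (limma 3.58.1), other scalings, filters and limits, separate fits, a replicate block and leaving out each library. The smallest two-sided exact permutation p for 3 against 3 is 0.1. All 12 columns were used. Some genes are not reported here.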

Additional observations from a re-analysis of the deposited data

How the results depend on the processing

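No called value of a named gene changed direction under any alternative. The other genes were not checked for this. Medians of the difference near 0 changed sign without 1 or more single libraries for 5 lists: Complex I subunits, ferroptosis, respiratory complexes III to V, the TCA cycle and triglyceride storage. The first 2 of these and triglyceride storage also changed sign under another filter. Requiring a change of at least 2-fold gave 456 higher and 273 lower genes with shFOXRED1, 1885 and 1479 with shYY2, and 1428 and 1557 for the difference. With an adjusted p under 0.01, the opposed genes higher with shFOXRED1 were 421. The genes changed with 1 knockdown only depended on the limit set for the unchanged knockdown. With a limit of 0.322 on the log2 scale in place of 0.585, 2 were higher and 13 lower with shFOXRED1 only, and 131 higher and 205 lower with shYY2 only. With a limit of 2-fold, 50 were higher with shFOXRED1 only and 550 with shYY2 only. The 11 genes higher with shFOXRED1 only became 7 with DESeq2's Wald test and 7 without a filter on low counts, and ranged from 6 to 18 over the fits that left out a library. Over these fits the called differences ranged from 4420 to 5046 higher and from 4275 to 4701 lower, and the shared genes from 1417 to 1861 higher and from 1960 to 2281 lower, with the highest of each of these counts reached without shFOXRED1 replicate 3. Fitting each experiment on its own gave 2650 higher and 3102 lower genes with shFOXRED1 and 5892 and 6105 with shYY2. The cause of these changes was not tested.

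Replicate numbers were not taken to pair the libraries: the correlations of the deviations of same-numbered libraries were 0.0717, 0.0422 and 0.188 in the FOXRED1 experiment and -0.0355, 0.103 and 0.147 in the YY2 experiment, and not every library correlated best with its own number. With the replicate number as a block, 5082 differences were higher and 4790 lower, 3650 and 4058 genes were called with shFOXRED1 and 5762 and 5948 with shYY2, and no call of a named gene changed.

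The shFOXRED1 calls of YY2, GPX4, GBP1, PC, ATP6V0D1 and EXOSC6 were lost under at least 2 alternatives each, not counting left-out libraries. YY2 was not called with DESeq2's size factors (adjusted p = 0.0522) or its Wald test (adjusted p = 0.119). Of the medians of the difference, that of DNA replication was 0.733 without a filter and 0.732 with upper quartile scaling, and that of triglyceride storage 0.000406 with at least 10 counts in every library. At 11 to 12 counts per shYY2 library, depth limits what can be said of YY2 itself.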

Other observations

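Of 24 genes of the E2F and RB family, 13 fell with shFOXRED1 and 18 with shYY2, 12 of them with both. E2F2, an activator of S phase genes, had log2 fold changes of -0.81 with shFOXRED1 and -2.47 with shYY2. RBL2, the repressor p130, was opposed with -0.34 and 1.2545 (difference -1.60 ± 0.06, SE; edgeR's quasi-likelihood test, adjusted p = 2.95e-15). CCNE2, cyclin E2, had -0.33 (adjusted p = 0.213) and -2.40. Of 29 p53 targets, 9 rose and 8 fell with shFOXRED1 and 12 rose and 13 fell with shYY2. The antiproliferative BTG2 (0.57 and 2.72) and TP53INP1, a stress protein (0.71 and 2.57), rose with both and further with shYY2, and AEN, an exonuclease, fell with both (-0.43 and -2.32).

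Of 24 glycolysis genes, 13 fell with shFOXRED1 and 16 with shYY2, 11 with both. PFKFB3, which makes an activator of glycolysis, was opposed with 0.79 and -0.26, and PGAM1, phosphoglycerate mutase, had -0.29 and -1.36. In the TCA cycle 13 of 25 fell with shFOXRED1 and 15 with shYY2, 11 with both. In respiratory complexes III, IV and V, 19 of 35 fell with shFOXRED1, and 15 fell and 8 rose with shYY2. In the hypoxia list, 10 of 30 rose and 9 fell with shFOXRED1 and 9 rose and 11 fell with shYY2. STC1, a secreted glycoprotein, was opposed with 0.86 and -2.79, and its rise with shFOXRED1 was lost without shFOXRED1 replicate 1 (0.69) or either of shControl_FOXRED1 replicates 1 and 2 (0.78 and 0.74). Of 38 genes of the mTOR pathway and MYC, 11 rose and 9 fell with shFOXRED1 and 19 rose and 10 fell with shYY2. Of 33 lysosomal genes, 16 rose and 9 fell with shFOXRED1 and 20 rose and 6 fell with shYY2, 12 of them with both rising. Among 36 columnar and squamous genes, 8 rose and 9 fell with shFOXRED1 and 8 rose and 16 fell with shYY2. GATA6, a columnar transcription factor, had -0.83 with shFOXRED1 and 0.00 with shYY2 (95% interval -0.14 to 0.15), and IVL, the squamous protein involucrin, 0.39 and -2.93.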
